A study of Mus musculus with 31 samples.

Results

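The extracellular matrix genes of the mouse hippocampus were followed here, namely the collagens, laminins, matrix metalloproteinases, ADAMTS proteases and fibronectin. Members were the rows of the deposited table whose symbol began with Col and a chain number, with Lam and a chain, with Mmp or with Adamts and a number, or was Fn1. The rule found 74 of 15648 genes, 36 collagen chains, 11 laminin chains, 11 Mmp genes, 15 Adamts genes and Fn1. RefSeq lists 98 protein-coding mouse genes that match the rule, and the other 24, among them Mmp3, Mmp8, Mmp12 and Mmp13, were not analysed here.

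Bulk RNA of the left hippocampus came from 31 adult OT-I/Rag-/- mice, each a library of its own, in which CD8+ T cells carry a receptor for an ovalbumin (OVA) peptide and the animals lack Rag1 and hence T and B cells with receptors of their own. Both groups received a recombinant adeno-associated virus into dorsal CA1 on both sides and the analgesic ketoprofen. The rAAV-OVA vector drove OVA and mCherry from the neuronal hSyn promoter, and the rAAV-control vector drove mCherry alone. Tissue was taken at 2, 5, 8 and 28 days, from 4 mice per group and day, except that there were 3 rAAV-control mice at 8 days. By the labels 23 libraries belong to a first batch, batch 1, which covers the 5- and 8-day animals completely, and 8 belong to batch 2. Each group at 2 and 28 days held 2 mice of each. All mice of both groups carry the OT-I receptor and the Rag1 deletion, and expression of the antigen was limited to cells in which hSyn is active. In whole tissue, more cells of a type and more RNA per cell cannot be told apart.

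The matrix of the brain differs from that of other organs. Fibrillar collagens such as types I, III and V are made by fibroblasts of the meninges, of large vessels and of the choroid plexus, and are sparse in the parenchyma. Type IV collagen and laminins, each assembled as trimers of different chains, form the basement membranes around vessels and below the pia. Matrix metalloproteinases (MMPs) and ADAMTS proteases, which are zinc enzymes, cut these proteins and the lectican proteoglycans between cells, and fibronectin is a cell adhesion protein that plasma, vessels and inflammatory cells supply.

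Total counts ran from 19046977 to 57407902 per mouse, with a median of 27024978, and the mean of the members ran from 0.780 to 199 CPM (counts per 1000000 counts of the library, after TMM normalization). Several mice stood apart in ways that touch the members, and their effect on the calls is given beside the results they changed. In rAAV-OVA mouse D845 at 28 days, the 11 fibroblast markers summed to 1924 CPM against 430.1 to 915 CPM in the other 3 mice of its group, and Dcn, a defining fibroblast gene, stood at 188 CPM. Markers of the choroid plexus, the tissue that lies in the ventricles beside the hippocampus, varied within both groups, with Ttr, the transthyretin of its epithelium, between 13.8 and 4885 CPM across the 31 mice. rAAV-OVA mouse D844 at 28 days had a summed level of thalamic and striatal markers of 629 CPM against 101 to 215 CPM in the other 3, and its 8 monocyte markers summed to 80.9 CPM against 722.9 to 1577 CPM. The 8 monocyte markers were higher in rAAV-OVA mice and passed the test in 8, 8 and 7 of 8 genes at 5, 8 and 28 days. The table held 3 of 10 T cell markers, and all 3 were called higher at each of these days, with median Log2FC of 3.47, 3.92 and 4.49. At 5 days 4 of 8 oligodendrocyte, 2 of 8 hippocampal neuron, 2 of 11 fibroblast, 2 of 8 astrocyte, 1 of 10 endothelial and 1 of 9 microglial markers were called lower, and 2 of 9 microglial, 2 of 8 thalamic and striatal, 1 of 8 astrocyte and 1 of 10 pericyte markers higher. On that day 8 of 10 choroid plexus markers were also called lower. At 8 days 1 of 11 fibroblast and 1 of 10 pericyte markers were called lower and 2 of 8 thalamic and striatal, 1 of 8 astrocyte and 1 of 3 neutrophil markers higher. The 8 hippocampal neuron markers, which define the labelled tissue, were present in every mouse, with sums of 2179 to 2532 CPM in rAAV-control mice at 28 days and 723.1 to 2048 CPM in rAAV-OVA mice. Of these 8, 6 were called lower at 28 days, and 6 of the 8 thalamic and striatal markers, 6 of 9 microglial, 4 of 10 endothelial, 2 of 10 pericyte and 3 of 11 fibroblast markers were called higher. At 28 days 2 of 8 astrocyte and 1 of 3 neutrophil markers were also called higher. Without D845 these counts were 6 lower for hippocampal neurons, and 4 higher for the thalamic and striatal, 7 for the microglial, 2 for the endothelial, 0 for the pericyte and 1 for the fibroblast markers, with 1 fibroblast marker lower. Astrocyte markers called higher without D845 numbered 3, and neutrophil markers 1. With log2 CPM of Ttr as a covariate, an alternative chosen after the data were seen, 14, 7 and 32 members were called at 5, 8 and 28 days, 12, 6 and 28 of them higher, where 17, 6 and 28 were called without it, 12, 5 and 24 of them higher. The part of the other tissues in the results for the members was not tested.

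Levels between genes were compared per kilobase of the longest transcript, as the median over the 15 rAAV-control mice. Mmp17, a membrane-bound MMP, had the highest level of all members at 34.0 CPM per kb, followed by Mmp24 at 11.7, Fn1 at 8.02, Col25a1, a transmembrane collagen of neurons, at 7.64, Adamts4, which cuts lecticans, at 7.11 and Mmp14 at 6.33 CPM per kb. Chains of the basement membrane also ranked high, with Col4a1 at 6.31, Col4a2 at 6.09, Lamb1 at 5.66, Lamb2 at 5.45 and Lamc1 at 5.38 CPM per kb, and Col9a3 had 6.004 CPM per kb. Over all 31 mice, rAAV-OVA mice included, the medians were 10.4 for Fn1, 7.91 for Mmp14, 7.00 for Col4a1, 6.46 for Col25a1 and 6.002 CPM per kb for Adamts4, so that Mmp14 and Col4a1 then ranked above Col25a1 and Adamts4.

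A member was called where the edgeR FDR was at most 0.05 and the absolute Log2FC, rAAV-OVA against rAAV-control, at least 0.66. At 2 days 0 of 74 members were called, as were 0% of all genes. At an unadjusted p under 0.05 by edgeR there were 6 members, beside 9.13% of all genes, the lowest FDR of a member was 0.333, and DESeq2 and voom also called 0. At 5 days 17 members were called, 22.97% of the 74 against 14.2% of all genes. Of these 12 were higher, beside 9.56% of all genes higher, and 5 were lower, beside 4.67%. At 8 days 6 members were called, 8.11% against 9.94% of all genes, with 5 higher, beside 9.36% of all genes, and 1 lower, beside 0.588%. All 6 of these calls ended when the mice of 8 days were fitted alone without covariates, and 2 members were called with at least 15 counts in every mouse. At 28 days 28 members were called, 37.8% against 17.6% of all genes, with 24 higher, beside 12.7%, and 4 lower, beside 4.86%. The median Log2FC of the 74 members was -0.02, -0.13 and 0.46 at 5, 8 and 28 days, where that of all genes was -0.01, -0.03 and 0.01.

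The 28-day count varied with the fit and rested in part on a single mouse. It was 17 by voom and 10 with the mice of 28 days alone, and 8 in batch 1 and 0 in batch 2, where 2 mice per group were compared. Without D845, 14 members were called, beside 15.9% of all genes, 13 of them also called with it, and the median Log2FC of the members fell to 0.07. Without D844 it was 26. The fit without rAAV-OVA mouse BEC-B542 of the 2-day group, in which the surrogate variables were estimated again, called 9 members at 28 days, all 9 also called with it, beside 11.2% of all genes, and the cause was not tested. In that fit the median Log2FC of the members at 28 days was 0.49. The 5-day count fell to 11 without D725. The 8-day count was 0 without D722, 2 without BEC-B541, BEC-B542 or D700, 3 without D684 or D702 and 10 without D844. Where a number of members called under another fit stands without the share of all genes, here or elsewhere, that share was not counted. A loss of calls among the members cannot then be told from one over all genes.

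Over the days, 38 of the 74 members were called at least once, beside 25% of all genes, and 0 in opposite directions. Adamts6, Mmp14, Mmp19 and Mmp25 were called at 5, 8 and 28 days. Col12a1, Col16a1, Col4a5 and Col5a2 were called at 5 and 28 days, and Col11a1 at 5 and 8 days. The groups did not overlap, with all rAAV-OVA mice above all rAAV-control mice, for 14 members at 5 days, 4 at 8 days and 12 at 28 days, beside 21%, 14.4% and 15% of all genes. The reverse held for 10, 10 and 4 members, beside 19.6%, 11.9% and 14%. At 2 days the groups overlapped for all 74, and did not for 4.15% of all genes.

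**Figure D1:**
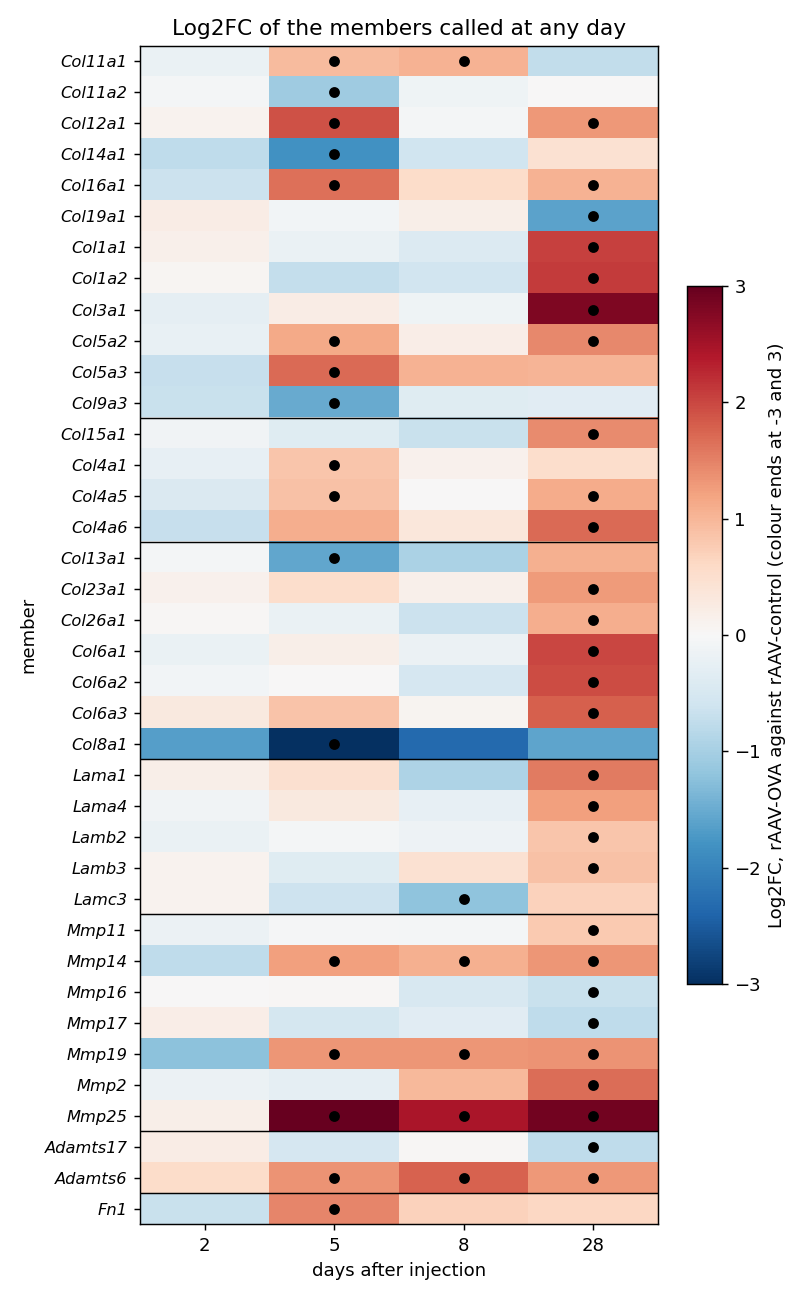
Log2FC of the 38 members called at any day (rows, in family order with lines between families) at 2, 5, 8 and 28 days (columns), with red for higher and blue for lower in rAAV-OVA mice. Black dots mark called members. No dot stands at 2 days, and the block of dots at 28 days covers type I, III and VI collagen chains that carry no dot at 5 and 8 days.

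Of the 11 MMPs, the calls numbered 3 on day 5, 3 on day 8 and 7 on day 28, beside 14.2%, 9.94% and 17.6% of all genes, and 3 MMPs rose at all of these days. Mmp25, a membrane-anchored MMP of leukocytes, was among them. At 5 days its CPM was 12.99, 7.92, 15.1 and 9.67 in rAAV-OVA mice and 0.984, 0.731, 0.556 and 1.02 in rAAV-control mice. At 8 days it was 17.02, 8.74, 10.3 and 10.4 against 1.00, 5.51 and 1.27, and at 28 days 17.1, 4.90, 20.01 and 1.24 against 1.04, 0.642, 0.585 and 0.412. Groups did not overlap at any of the 3 days, the high rAAV-control mouse at 8 days was D720, and the low rAAV-OVA mouse at 28 days was D844. Log2FC was 3.04 ± 0.51 (SE) at 5 days with an edgeR FDR of 1.37e-04, 2.44 ± 0.52 at 8 days with an edgeR FDR of 0.00245, and 2.90 ± 0.55 at 28 days with an edgeR FDR of 6.08e-04. Leaving out rAAV-control mouse D722 took the 8-day FDR to 0.0646 at a Log2FC of 1.82. Mice D720 and D844 also stood apart in monocyte markers, with 249 CPM in D720 against 24.9 to 40.6 CPM in the other rAAV-control mice at 8 days.

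Mmp14, the membrane-type MMP that activates pro-MMP2 and cuts fibrillar collagen, rose at the same days. At 5 days it had 67.8, 63.7, 71.9 and 54.2 CPM in rAAV-OVA mice and 19.6, 20.5, 19.3 and 25.2 CPM in rAAV-control mice. At 8 days the values were 88.4, 35.1, 45.0 and 66.2 against 20.8, 36.8 and 26.3, and at 28 days 61.3, 35.2, 85.7 and 23.6 against 14.9, 16.8, 15.1 and 13.04 CPM. The groups were apart at 5 and 28 days and overlapped at 8 days, where rAAV-OVA mouse D701 lay below rAAV-control mouse D720. Log2FC was 1.23 ± 0.29 at 5 days (edgeR FDR 0.00293), 1.07 ± 0.30 at 8 days (edgeR FDR 0.0167) and 1.33 ± 0.30 at 28 days (edgeR FDR 0.00196). The 8-day call was lost without BEC-B541 (0.82), BEC-B542 (0.94), D722 (0.85) or D700 (0.93).

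Mmp19, an MMP that cuts basement membrane proteins, had 8.76, 6.35, 5.77 and 4.21 CPM in rAAV-OVA mice and 1.30, 1.94, 1.34 and 1.42 CPM in rAAV-control mice at 5 days. At 8 days it had 6.09, 2.08, 3.96 and 5.96 against 0.668, 3.59 and 1.79 CPM and at 28 days 6.19, 3.42, 9.18 and 1.41 against 1.00, 1.36, 0.842 and 0.961 CPM. Groups were apart at 5 and 28 days, with D844 the lowest rAAV-OVA mouse at 28 days, and overlapped at 8 days through D701 and D720. Log2FC was 1.33 ± 0.41 at 5 days (edgeR FDR 0.0162), 1.33 ± 0.42 at 8 days (edgeR FDR 0.0316) and 1.35 ± 0.42 at 28 days (edgeR FDR 0.0169). Leaving out 1 mouse ended the call in 1 of 31 fits at 5 days (without D726, 1.19), in 9 at 8 days, where the lowest value was 0.72 without D696, and in 3 at 28 days (without BEC-B542, 1.21; without D726, 1.21; without D661, 1.24). The test without covariates gave 1.17 at 8 days with an edgeR FDR of 0.159.

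**Figure D2:**
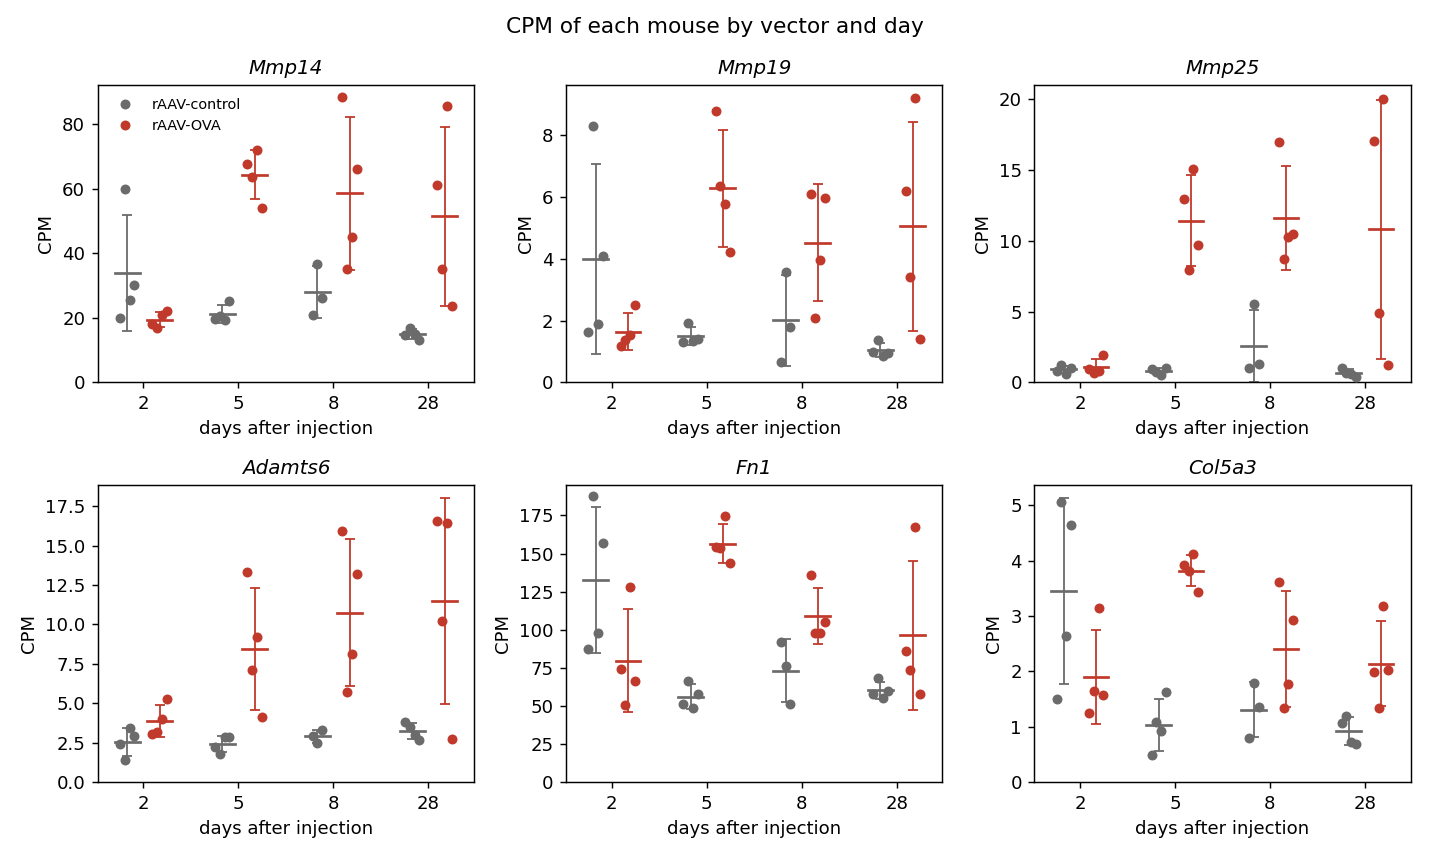
CPM of Mmp14, Mmp19, Mmp25, Adamts6, Fn1 and Col5a3 in each mouse (points) by day, with the group mean (line) and SD (bars). At 5 days the rAAV-OVA and rAAV-control points are apart in all 6 panels, and at 2 days the rAAV-control mice include the highest points for Fn1 and Col5a3.

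The bases upstream of Mmp14 and Mmp25 are shown because both genes were called at 5, 8 and 28 days and RefSeq windows for them were at hand (GRCm38.p6). Each run covers 250 bases that end just before the annotated start, at chr14:54431348-54431597 on the plus strand for Mmp14 and chr17:23645270-23645519 on the minus strand for Mmp25, written 5′ to 3′ in the direction of the gene. Capitals mark matches to 3 motifs searched on both strands, the AP-1 motif TGANTCA, the GAS motif TTCNNNGAA of STAT factors, and the NF-κB motif.
Mmp14: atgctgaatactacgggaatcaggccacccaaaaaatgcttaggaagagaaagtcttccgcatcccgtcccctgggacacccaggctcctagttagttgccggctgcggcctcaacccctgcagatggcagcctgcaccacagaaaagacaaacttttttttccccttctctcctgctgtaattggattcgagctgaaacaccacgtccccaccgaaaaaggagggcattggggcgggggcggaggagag
Mmp25: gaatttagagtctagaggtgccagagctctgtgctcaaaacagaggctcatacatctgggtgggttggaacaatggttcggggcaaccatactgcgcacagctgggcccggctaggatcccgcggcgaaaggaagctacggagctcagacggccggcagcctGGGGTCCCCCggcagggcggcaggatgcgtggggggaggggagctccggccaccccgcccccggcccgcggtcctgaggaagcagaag
Mmp25 held 1 match, to the NF-κB motif on the opposite strand at -88 to -79 from the start, and Mmp14 held 0. GC content was 55.2% for Mmp14 and 66.0% for Mmp25. Windows were found for 47 of the 74 members, of which 5, or 10.6%, held an NF-κB match, 1 an AP-1 match and 1 a GAS match, and over all 32851 windows the shares were 3.90%, 6.75% and 7.02%. These are matches of letters and not evidence of binding.

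Mmp2, the gelatinase that MMP14 activates, was called at 28 days alone. It had 17.9, 14.7, 40.2 and 3.93 CPM in rAAV-OVA mice at 28 days and 2.93, 5.33, 2.20 and 2.93 CPM in rAAV-control mice, and D844 lay among the rAAV-control values. Log2FC was 1.69 ± 0.44 with an edgeR FDR of 0.00573, the call held in all 31 fits that left out 1 mouse, and without D845 it was 1.56. At 5 days the Log2FC of Mmp2 was -0.27 and at 8 days 0.97, neither called. Mmp11, stromelysin 3, was also called at 28 days at 0.78, and was not called in 14 of the 31 fits, with 0.52 without D845.

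A pair of membrane-type MMPs were called lower at 28 days. Mmp17 fell by 0.76 on the log2 scale at 28 days (edgeR FDR 0.0122), from 215 ± 17.2 CPM (SD, n = 4) in rAAV-control mice to 132 ± 55.4 CPM (SD, n = 4), and was at -0.47 and not called without D845. Mmp16, another membrane-type MMP, fell by 0.66 at 28 days (edgeR FDR 0.00285) with no overlap between groups, at 12.9, 19.5, 13.3 and 17.3 CPM against 25.3, 23.7, 26.9 and 23.5 CPM, and lost the call in 18 of 31 fits. Mmp24 had a Log2FC of -0.45 at 28 days (edgeR FDR 0.0359), below that limit. Mmp9, a gelatinase stored by neutrophils, was not called, with Log2FC of -0.54, -0.35 and 0.03 at 5, 8 and 28 days, and 3 of 11 neutrophil markers were in the table, Mmp9 among them.

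Adamts6 was the ADAMTS protease called at 5, 8 and 28 days. It had 13.3, 7.09, 9.19 and 4.11 CPM in rAAV-OVA mice and 2.24, 1.79, 2.86 and 2.87 CPM in rAAV-control mice at 5 days. Values were 15.9, 5.70, 8.12 and 13.2 against 2.92, 2.51 and 3.30 CPM at 8 days and 16.5, 10.3, 16.4 and 2.76 against 3.81, 3.49, 2.96 and 2.65 CPM at 28 days. Groups were apart at 5 and 8 days, and at 28 days D844 alone lay within the rAAV-control range. Log2FC was 1.35 ± 0.41 (edgeR FDR 0.0166), 1.77 ± 0.43 (edgeR FDR 0.00665) and 1.31 ± 0.42 (edgeR FDR 0.0203) in that order of days. The call was lost without D724 at 5 days (1.09), without D722 at 8 days (1.60), and without D696 (0.87), D851 (1.18) or D661 (1.24) at 28 days. Without D844 the 28-day value was 2.23 and called, and without BEC-B541 the 8-day value was 1.16 and called.

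Of the 15 ADAMTS genes, 1 was called at 5 days, 1 at 8 days and 2 at 28 days, shares below those of all genes (14.2%, 9.94% and 17.6%). The second at 28 days was Adamts17, lower at -0.76 with an edgeR FDR of 0.0499, which was lost in 18 of 31 fits and was at -0.38 without D844 and -0.45 without BEC-B542. The aggrecanases were not called, with Log2FC at 5, 8 and 28 days of -0.58, -0.41 and -0.08 for Adamts4, 0.33, -0.32 and 0.35 for Adamts5, and 0.68, -0.44 and -0.56 for Adamts1. The 5-day value of Adamts4 had an edgeR FDR of 0.0187 and missed the limit on size.

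Fibronectin rose at 5 days. Fn1 had 154, 154, 174 and 144 CPM in rAAV-OVA mice and 51.6, 66.6, 48.4 and 58.1 CPM in rAAV-control mice, with no overlap, a Log2FC of 1.46 ± 0.29 and an edgeR FDR of 7.68e-04. At 8 days it had 136, 97.6, 97.8 and 105 against 92.1, 76.1 and 51.1 CPM and at 28 days 86.3, 73.8, 168 and 57.6 against 57.7, 68.2, 55.5 and 59.8 CPM. These groups were apart at 8 days and overlapped at 28 days, and neither difference was called, at 0.69 ± 0.31 (edgeR FDR 0.112) and 0.62 ± 0.30 (edgeR FDR 0.114). The 5-day call held in all 31 fits that left out 1 mouse, between 1.26 and 1.53. Without D845 the 28-day value was 0.20, and without D844 it was 1.01 and called. Without D696 it was 0.38, and without D722 the 8-day value was 0.45, neither called. At 2 days the rAAV-control mice had 87.7, 188, 98.0 and 157 CPM and the rAAV-OVA mice 74.4, 50.4, 128 and 66.4 CPM.

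Among the 18 fibrillar and related collagens, 5 rose and 3 fell at 5 days, beside 9.56% and 4.67% of all genes. Col12a1, which associates with collagen fibrils, had 37.0, 15.5, 16.5 and 35.7 CPM in rAAV-OVA mice against 5.01, 8.81, 6.08 and 6.05 CPM, a Log2FC of 1.90 ± 0.49 and an edgeR FDR of 0.00565. Col16a1, of the same fibril-associated class, had 32.3, 20.5, 15.9 and 21.9 CPM against 3.27, 7.31, 6.16 and 8.92 CPM, a Log2FC of 1.66 ± 0.39 and an edgeR FDR of 0.00265. Col5a3, a chain of type V collagen, had 3.92, 3.82, 4.11 and 3.44 CPM against 0.492, 1.10, 0.927 and 1.63 CPM, a Log2FC of 1.70 ± 0.40 and an edgeR FDR of 0.00252. These 3 genes had groups that did not overlap, and the calls held in all 31 fits that left out 1 mouse.

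Other fibrillar chains gave less firm calls at 5 days. Col5a2 had 10.2, 5.70, 7.67 and 7.48 CPM against 2.33, 3.58, 3.45 and 3.96 CPM, without overlap, a Log2FC of 1.135 ± 0.42 and an edgeR FDR of 0.0465, and lost the call in 22 of 31 fits, at values of 0.88 to 1.23. Its partner Col5a1 had a Log2FC of 1.08 and was not called (edgeR FDR 0.0965). Col11a1 had 9.42, 6.50, 6.27 and 6.57 CPM against 1.92, 2.59, 3.08 and 3.79 CPM at 5 days and 6.26, 2.46, 4.57 and 7.08 against 2.09, 3.27 and 2.47 CPM at 8 days, with a single rAAV-OVA mouse, D701, within the rAAV-control range at 8 days. Its Log2FC was 0.94 ± 0.32 (edgeR FDR 0.0303) and 1.05 ± 0.33 (edgeR FDR 0.0311), and the calls were lost in 7 and 10 of 31 fits. The lowest values were 0.69 without D723 at 5 days and 0.62 without BEC-B541 at 8 days, where it was also 0.65 without BEC-B542, and with log2 CPM of Ttr as a covariate the 5-day value was 0.85 and not called. The chains of types I and III, Col1a1, Col1a2 and Col3a1, had Log2FC of -0.20, -0.71 and 0.22 at 5 days and -0.41, -0.58 and -0.14 at 8 days, and none of these was called.

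The partner chain Col11a2 moved the opposite way to Col11a1 at 5 days, from 18.1 ± 6.12 CPM (SD, n = 4) in rAAV-control mice to 8.91 ± 1.55 CPM (SD, n = 4), a Log2FC of -1.06 ± 0.24 with an edgeR FDR of 0.00185, called in all 31 fits. Col9a3, a chain of type IX collagen, was lower at 5 days at -1.52 and Col14a1 at -1.81. Col9a3 lost its call without D845, at the lowest value, -0.98, and without rAAV-control mouse D724, at -1.20 (edgeR FDR 0.0593), where it had stood at 21.996 CPM against 8.28 to 16.1 CPM in the other 3 rAAV-control mice. With log2 CPM of Ttr as a further covariate it was -0.88 and called. Col14a1 was -1.02 without D724 (edgeR FDR 0.212), was lost too without D725 (-1.73), D786 (-1.77) or D787 (-1.55), and was -1.03 and not called with the Ttr covariate. Ttr in D724 was 3515 CPM against 19.4 to 98.1 CPM in the other 3 rAAV-control mice.

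Of the 10 other collagens, Col8a1 and Col13a1 were called lower at 5 days, beside 4.67% of all genes. Col8a1 is a network-forming collagen. At 5 days it had 0.814, 0.924, 1.26 and 1.11 CPM in rAAV-OVA mice and 0.895, 30.4, 1.15 and 0.879 CPM in rAAV-control mice, so that D724 alone stood apart and the other mice overlapped. The Log2FC of -3.60 ± 1.16 (edgeR FDR 0.0216) became -0.36 (edgeR FDR 0.841) without D724, and -0.07 (edgeR FDR 0.933) with log2 CPM of Ttr as a further covariate. The call was also lost without D684 (-2.96), BEC-B541 (-2.78), BEC-B542 (-2.90), D725 (-3.38) or D845 (-2.35). The 10 choroid plexus markers, 8 of them called lower in rAAV-OVA mice at 5 days, summed to 3903 CPM in D724, to 45.6 to 151 CPM in the other rAAV-control mice and to 52.8 to 149.7 CPM in rAAV-OVA mice, so that the groups overlapped apart from D724. At other days the highest Col8a1 values also stood beside high Ttr, at 13.1 CPM in rAAV-OVA mouse D684 at 2 days with Ttr at 4885 CPM, and at 26.4 CPM in D845 with Ttr at 4844 CPM. Its partner Col8a2 was not called, at -2.10 at 5 days. Col13a1, a transmembrane collagen, had a Log2FC of -1.55 ± 0.54 (edgeR FDR 0.0327) and lost its call without BEC-B541 (-1.54), D724 (-1.34), D725 (-1.24) or D786 (-1.49), and with Ttr as a covariate, at -1.26 (edgeR FDR 0.0919).

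**Figure D3:**
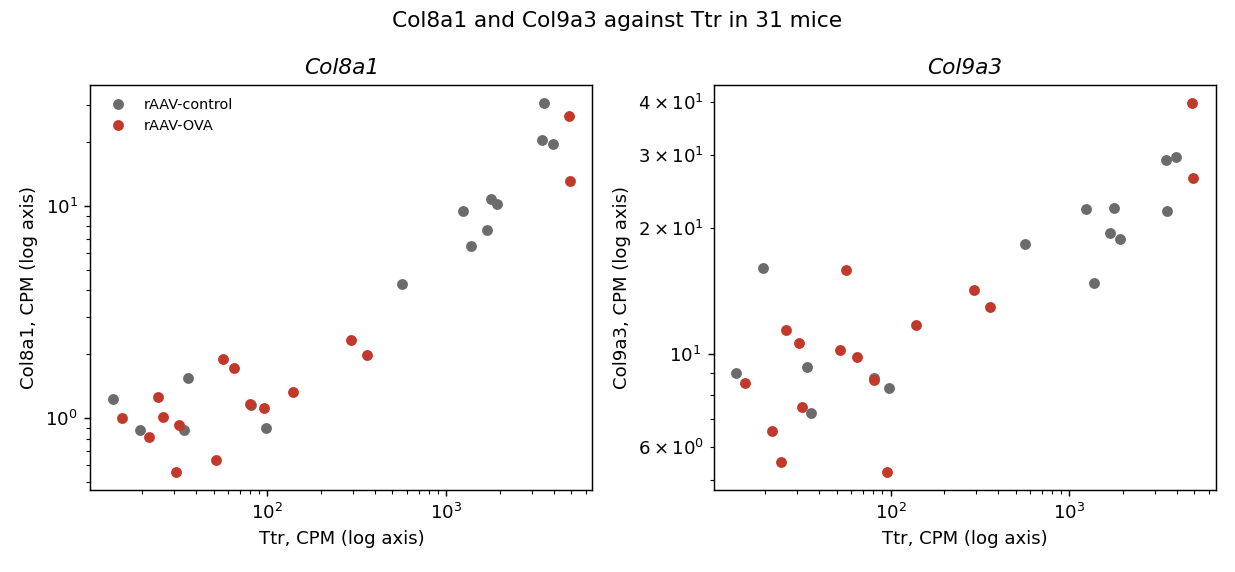
CPM of Col8a1 (left) and Col9a3 (right) against CPM of Ttr in the 31 mice, both axes logarithmic, with grey points for rAAV-control and red points for rAAV-OVA. All mice with Ttr at 1239 CPM or more have Col8a1 at 6.47 CPM or more, the other mice lie at 4.27 CPM or less, and the rAAV-OVA mice at 5 and 8 days are all on the left.

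Of the 8 basement membrane collagens 2, Col4a1 and Col4a5, rose at 5 days and 3 at 28 days, beside 9.56% and 12.7% of all genes. Col4a1, which with Col4a2 forms the type IV collagen of most vessels, went from 38.1 ± 6.42 CPM (SD, n = 4) to 70.4 ± 12.8 CPM (SD, n = 4), a Log2FC of 0.83 ± 0.24 with an edgeR FDR of 0.0119, called in all 31 fits. Its partner Col4a2 had a Log2FC of 0.58 with an edgeR FDR of 0.0278 and missed the limit on size. The RefSeq starts of this pair lie 21 bases apart on opposite strands of chromosome 8 (GRCm38.p6). The 22 bases from the start of Col4a2 to that of Col4a1 are shown because both annotated genes cover them, each on its own strand.
Col4a1 and Col4a2, chr8:11312805-11312826, plus strand: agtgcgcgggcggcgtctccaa
At 8 days the pair had Log2FC of 0.14 and 0.18, and at 28 days of 0.53 and 0.08, none called.

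Col4a5 and Col4a6 are the X-linked pair of type IV chains. Col4a5 had 11.1, 8.19, 8.56 and 10.2 CPM in rAAV-OVA mice against 2.82, 5.99, 3.23 and 5.69 CPM at 5 days and 8.88, 8.46, 20.4 and 5.86 against 3.08, 4.81, 3.48 and 5.40 CPM at 28 days, with no overlap at either day. Its Log2FC was 0.88 ± 0.33 (edgeR FDR 0.0447) and 1.12 ± 0.33 (edgeR FDR 0.0116). The 5-day call was lost in 16 of 31 fits, and that at 28 days only without BEC-B542 (0.85). Col4a6 had 8.64, 6.52, 15.01 and 1.97 CPM against 1.46, 2.21, 1.39 and 1.42 CPM at 28 days, where D844 fell within the rAAV-control range, with a Log2FC of 1.71 ± 0.49 (edgeR FDR 0.0101), 1.54 without D845 and 1.47 and not called without BEC-B542. Col15a1, a collagen of the basement membrane zone of vessels, was called at 28 days at 1.41 ± 0.44 (edgeR FDR 0.0156), with 7.87, 6.73, 20.6 and 5.07 CPM against 3.08, 4.05, 3.22 and 2.61 CPM and no overlap. It was 1.00 and still called without D845, and 1.43 and not called without BEC-B542.

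Chains of types I, III and VI collagen were called at 28 days and at no other day, and their Log2FC was smaller without D845. Col3a1 had 5.25, 8.14, 80.9 and 7.62 CPM in rAAV-OVA mice and 3.12, 3.89, 2.56 and 3.30 CPM in rAAV-control mice, which did not overlap. Its Log2FC was 2.79 ± 0.72 (edgeR FDR 0.00540) and 1.17 (edgeR FDR 0.0368) without D845, and the call was lost without BEC-B542 at 2.07. Col6a1 had 5.39, 7.19, 35.9 and 14.6 CPM against 4.20, 6.46, 3.88 and 4.53 CPM, and 1 rAAV-OVA mouse lay within the rAAV-control range. Its Log2FC was 2.00 ± 0.43 (edgeR FDR 0.00143) and 0.88 (edgeR FDR 0.0226) without D845.

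Without D845 the type I chains were no longer called. Col1a1 went from 2.04 (edgeR FDR 0.0143) to 0.33 (edgeR FDR 0.377), with 119 CPM in D845 against 9.79 to 12.6 CPM in the other 3 rAAV-OVA mice and 6.70 to 11.3 CPM in rAAV-control mice. Col1a2 went from 2.09 to 0.39, and to 1.33 without BEC-B542, with 227 CPM in D845 against 15.2 to 29.4 CPM. Col5a2 had 4.37, 4.72, 21.7 and 4.69 CPM against 3.12, 3.85, 2.31 and 3.07 CPM, did not overlap, and went from 1.44 ± 0.43 (edgeR FDR 0.0127) to 0.54 (edgeR FDR 0.101). Col6a2 kept its call at 0.90 after 1.96, and Col6a3 lost it at 0.56 after 1.79, and at 0.69 without BEC-B542 and 1.09 without D844.

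Col12a1 and Col16a1, called at 5 days in every fit, were in the same position at 28 days. Col12a1 had 8.54, 10.1, 43.5 and 5.83 CPM against 6.70, 7.98, 6.04 and 4.71 CPM at 28 days and went from 1.29 ± 0.50 (edgeR FDR 0.0478) to 0.33 without D845. Col16a1 had 13.4, 10.04, 32.04 and 7.52 CPM against 6.50, 6.74, 6.92 and 7.09 CPM and went from 1.04 ± 0.39 (edgeR FDR 0.0411) to 0.47. They lost the 28-day call in 18 and 14 of the 31 fits, and without D844 Col16a1 was 1.57 and called. Col23a1 (1.29 and 0.59 without D845) and Col26a1 (1.08 and 0.07) completed the collagens called higher. Col19a1, a collagen of interneurons, was lower at 28 days at -1.61 ± 0.43 (edgeR FDR 0.00657), with 2.10, 3.98, 1.71 and 0.965 CPM against 10.7, 8.38, 7.57 and 5.45 CPM and no overlap. It was -1.84 without D845 and -0.56 and not called without D844, and -0.95 and called without BEC-B542.

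**Figure D4:**
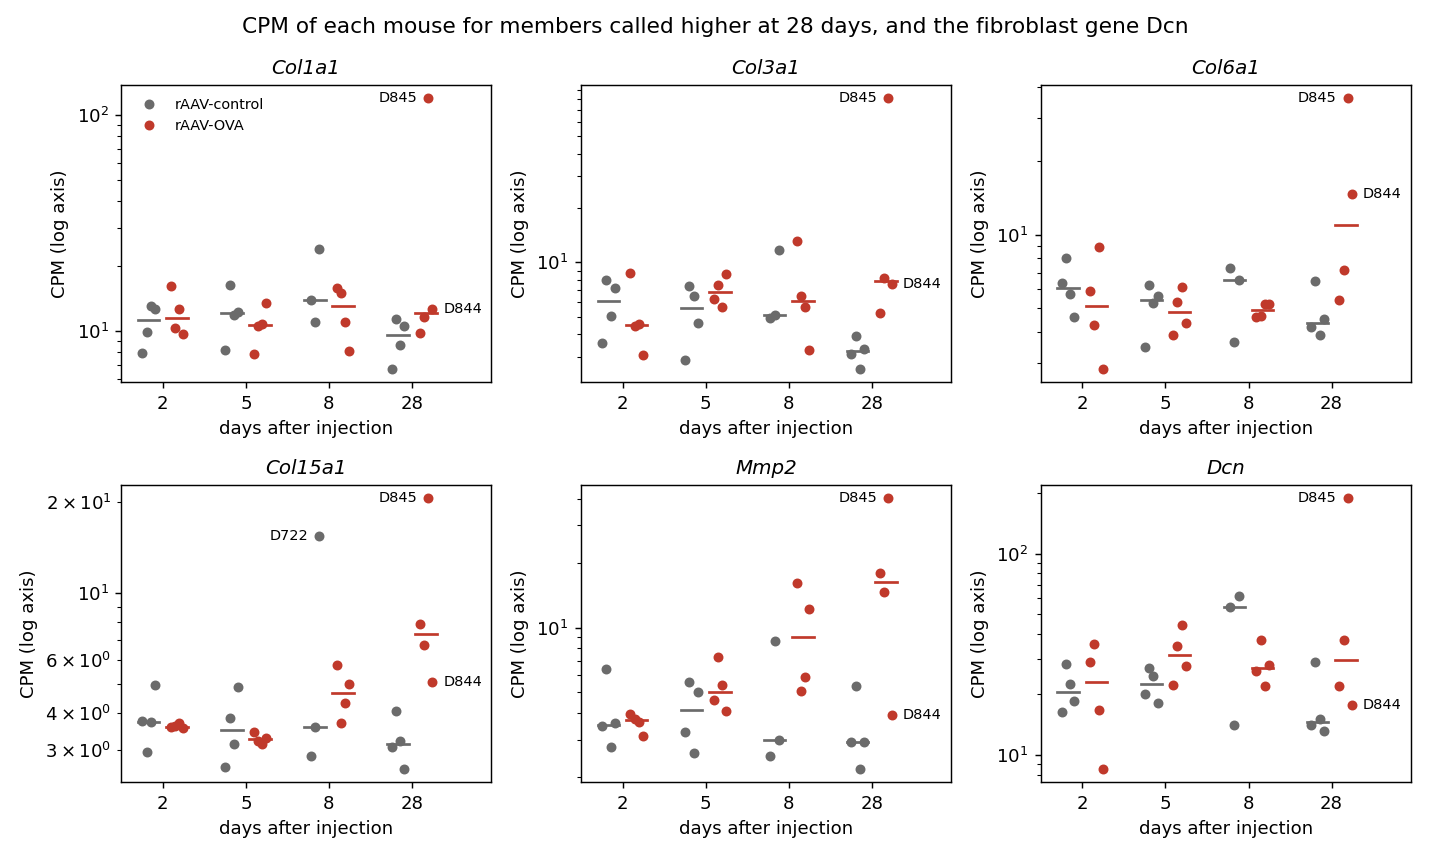
CPM of Col1a1, Col3a1, Col6a1, Col15a1, Mmp2 and the fibroblast gene Dcn in each mouse (points) by day on a logarithmic axis, with the group median (line) and mice D845, D844 and D722 named. D845 is the top point at 28 days in all 6 panels, and other rAAV-OVA mice at 28 days also lie above all rAAV-control mice of that day, 3 for Col3a1 and Col15a1 and 2 for Mmp2, Col1a1 and Col6a1 and 1 for Dcn.

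Laminins showed 0 of 11 chains called at 5 days, 1 at 8 days and 4 at 28 days, beside 14.2%, 9.94% and 17.6% of all genes. Lama1, the alpha chain of pial and early basement membranes, had 2.27, 2.78, 13.9 and 4.65 CPM in rAAV-OVA mice and 1.81, 2.41, 1.76 and 3.62 CPM in rAAV-control mice at 28 days, with D661 and D667 within the rAAV-control range. Its Log2FC of 1.55 ± 0.47 (edgeR FDR 0.0132) was 0.46 and not called without D845, and 1.05 and not called without BEC-B542. Lama4, the endothelial alpha chain, went from 1.24 to 0.25 without D845 and Lamb2 from 0.82 to 0.52, with groups of Lamb2 apart. Lamb3 was 0.87 with D845 and 0.91 without it, where it kept the call, but lost the call in 6 of 31 fits that left out 1 mouse, with the lowest value, 0.51, without D844. Lamc1, the chain with the highest mean CPM over all mice, had Log2FC of 0.10, -0.11 and 0.21 at 5, 8 and 28 days and was not called.

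Lamc3, a gamma chain, was the laminin called at 8 days and was lower without overlap, with 4.03, 6.75, 5.48 and 3.82 CPM in rAAV-OVA mice against 7.48, 7.13 and 19.8 CPM in rAAV-control mice. The Log2FC of -1.22 ± 0.38 (edgeR FDR 0.0292) became -0.49 (edgeR FDR 0.489) without rAAV-control mouse D722. In D722 the 10 pericyte and smooth muscle markers summed to 426 CPM against 289 to 301 CPM in the other rAAV-control mice, and Col15a1 and Lama1 were at 15.4 and 7.40 CPM against 2.88 to 3.59 and 2.42 to 4.18 CPM. The Lamc3 call was also lost without D684 (-1.15), BEC-B541 (-1.11), BEC-B542 (-1.03), D700 (-1.11), D702 (-1.23) or D703 (-1.09). Without D720, the rAAV-control mouse with raised Mmp25, 7 members were called at 8 days, beside 10.8% of all genes, 5 of them also called with it.

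Removing D845 left the 28-day calls of Adamts6 (1.27), Col15a1, Col19a1, Col3a1, Col4a5 (0.85), Col4a6, Col6a1, Col6a2, Lamb3, Mmp14 (1.29), Mmp19 (1.46), Mmp2 and Mmp25 (2.91), and added Col20a1 (1.43). It ended 15 calls, 12 of genes that were higher. Of these, some kept an edgeR FDR under 0.05 and missed only the limit on size. They were Lamb2 (0.52, edgeR FDR 0.00514), Mmp16 (-0.62, edgeR FDR 0.00868), Col23a1 (0.59, edgeR FDR 0.0252) and Mmp17 (-0.47, edgeR FDR 0.0280). In D845 the 10 endothelial markers also summed to 454 CPM against 271 to 297 CPM in the other rAAV-OVA mice and 209 to 244 CPM in rAAV-control mice. Within batches, where 2 rAAV-OVA mice faced 2 rAAV-control mice without a test, 25 of the 28 called members kept the same sign in both. These members had been called in a fit with the same mice, so the counts within batches are no independent test. The share over all called genes was not counted. In batch 1, which does not hold D845, 13 of the 28 differed by at least 0.66 in mean log2 CPM in the called direction, against 28 in batch 2. The batch 1 differences were 1.05 for Col3a1, 0.15 for Col1a1, 0.52 for Col6a1, 2.46 for Mmp2 and 3.29 for Mmp25, and those of batch 2 were 2.69, 2.10, 2.04, 1.59 and 2.17.

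**Figure D5:**
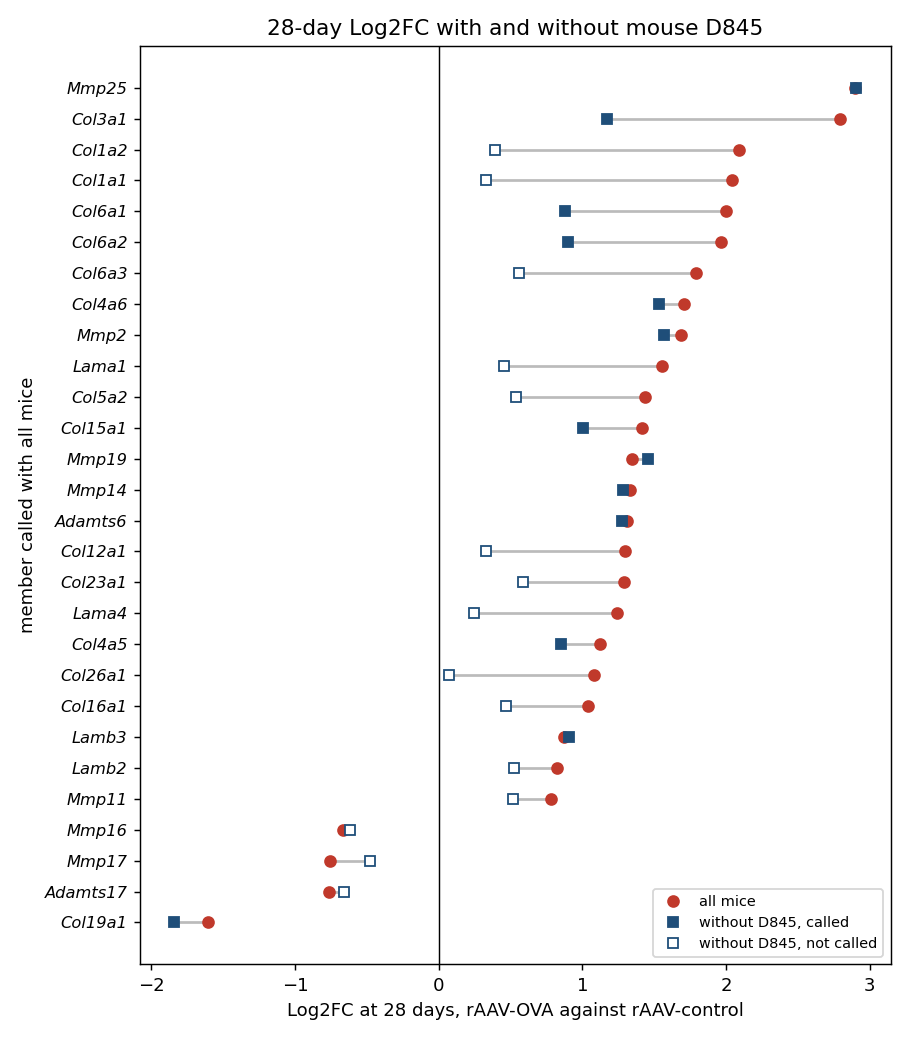
Log2FC at 28 days of the 28 called members with all mice (red circles) and without D845 (squares, filled where still called). Mmp25, Mmp14, Mmp19, Adamts6, Mmp2 and Col4a6 stay near their values, while Col1a1 and Col1a2 shift from 2.04 and 2.09 to 0.33 and 0.39.

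The response at 28 days was compared with that at 5 days as an interaction. It differed for 16 of 74 members, beside 6.18% of all genes, with a higher Log2FC at 28 days for 12, beside 3.86%, and a lower one for 4, beside 2.32%. The number was 5 without covariates and 4 with the batch label in place of the surrogate variables. The 4 proteases called at 5, 8 and 28 days were not among them, with differences of 0.09 for Mmp14, 0.02 for Mmp19, -0.14 for Mmp25 and -0.04 for Adamts6. Col11a1 had the lower Log2FC at 28 days, with a difference of -1.69 ± 0.41 (edgeR FDR 0.0129), followed by Adamts1 at -1.24 ± 0.37 (edgeR FDR 0.0380) and Adamts8, an angiogenesis-inhibiting ADAMTS, at -1.05 ± 0.24 (edgeR FDR 0.00899). Col13a1 at 2.61 ± 0.68 (edgeR FDR 0.0192), Mmp15 at 1.04 ± 0.27 (edgeR FDR 0.0187) and Col11a2 at 1.07 ± 0.30 (edgeR FDR 0.0298) had higher ones. Of the 16, Adamts1, Adamts8, Col11a1, Col11a2 and Col13a1 remained called without D845, the last at 1.77, and the others did not, with Mmp15 at 0.62. Adamts1 lost the call in 16 of 31 fits, Mmp28 in 23, Col6a1 in 19, Col15a1 in 18, Col9a2 in 15, Lama2 in 14 and Mmp16 in 13. The others of the 16 members lost it in 1 to 10 fits. The number called moved by over 1.5 times when 1 mouse was left out, to 1 without BEC-B542, 4 without D843 or D851, 5 without D725 or D844, 6 without D755, 7 without BEC-B541, D705, D787 or D845, 9 without D786 and 10 without D701. By the same test 4 of 10 endothelial, 3 of 9 microglial and 2 of 10 pericyte markers had a higher Log2FC at 28 days. So did 1 of 11 fibroblast, 1 of 8 astrocyte and 1 of 8 thalamic and striatal markers. A lower one was found for 1 of 8 hippocampal neuron markers. The part of these cell types was not tested. Of the 74 members 0 were called between 8 and 5 days, beside 0.179% of all genes, and 0 between 28 and 8 days, beside 0%. At an unadjusted p under 0.05 by edgeR there were 7 and 22 members, beside 7.29% and 16.1% of all genes, and DESeq2 without shrinkage called 0 and 7.

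Control vector mice also differed with time. Of the 74 members 4 were higher in rAAV-control mice at 2 days than at 28 days, beside 2.82% of all genes, and 0 were lower. Fn1 had 87.7, 188, 98.0 and 157 CPM at 2 days against 57.7, 68.2, 55.5 and 59.8 CPM at 28 days, a Log2FC of 1.16 ± 0.28 with an edgeR FDR of 0.0192. Mmp14 had 19.96, 60.0, 25.6 and 30.2 CPM at 2 days against 14.9, 16.8, 15.1 and 13.04 CPM, a Log2FC of 1.04 ± 0.28 with an edgeR FDR of 0.0369. Mmp19 had 1.64, 8.28, 1.90 and 4.10 CPM against 1.00, 1.36, 0.842 and 0.961 CPM, at 1.59 ± 0.40 (edgeR FDR 0.0230), and Col5a3 had 1.50, 5.05, 2.64 and 4.65 CPM against 1.08, 1.20, 0.732 and 0.687 CPM, at 1.85 ± 0.38 (edgeR FDR 0.00641). In each of these genes the highest rAAV-control mouse at 2 days was D743, whose monocyte markers summed to 927 CPM against 156 to 327 CPM in the other 3. Its fibroblast markers summed to 1421 CPM against 550 to 689 CPM. In all 4 rAAV-control mice at 28 days the monocyte sum was 8.20 to 20.8 CPM. Higher at 2 than at 28 days were 5 of 8 monocyte, 3 of 8 astrocyte, 2 of 9 microglial, 1 of 11 fibroblast and 1 of 3 neutrophil markers. The part of these cell types was not tested. The number called was 1 without D696, D705, D706, D743 or D843 and 7 without D845. Mmp25 did not show this difference, at 0.12 ± 0.53. Log2FC of Fn1, Mmp14 and Mmp19 between rAAV-OVA and rAAV-control mice at 2 days were -0.66, -0.75 and -1.22, none called.

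Genes that work with the members were taken from 8 lists, whose counts stand beside 14.2%, 9.94% and 17.6% of all genes called at 5, 8 and 28 days. Matrix receptors, which bind fibronectin, collagens and hyaluronan, had 8 of 26 genes called at 5 days (7 higher), 3 at 8 days (3 higher) and 11 at 28 days (10 higher), and medians of 0.37, 0.15 and 0.40. Cd44, the hyaluronan receptor, rose by 3.07, 1.98 and 2.55 on the log2 scale at 5, 8 and 28 days, and Itga5, a chain of the main fibronectin receptor, by 2.93, 2.07 and 2.37. Sdc1, a syndecan, rose by 1.68 and 1.59 at 5 and 8 days, and Itga2, a collagen receptor chain, by 1.43 and 1.48 at 5 and 28 days. The integrin chains Itgb4 at 5 days (-0.71) and Itga7 at 28 days (-1.13) were lower. Protease inhibitors had 5 of 12 genes called at 5 days (3 higher), 2 at 8 days and 4 at 28 days (all higher). Those lower at 5 days were Timp4 at -0.69 and Reck at -0.68, both MMP inhibitors. Serpina3n, a serine protease inhibitor of reactive astrocytes, rose by 1.61, 1.38 and 1.61 at 5, 8 and 28 days, while Timp1, an MMP inhibitor, rose by 3.03 at 5 days and A2m by 2.23 at 28 days. Timp1 had 13.2, 114, 8.56 and 22.1 CPM in rAAV-control mice at 2 days and 0.385, 0.722, 0.220 and 0.366 CPM at 28 days, a Log2FC of 6.08.

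Among plasminogen and other activating proteases 8, 4 and 2 of 16 genes were called at 5, 8 and 28 days, all of them higher, with a median of 0.78 at 5 days. Plaur, the urokinase receptor, rose by 2.69 and 2.23 at 5 and 8 days, Adam8 by 2.49 and 2.07, Adam17 by 0.99, 1.13 and 1.02 at 5, 8 and 28 days, and Plau by 1.59 at 28 days. Collagen processing and cross-linking had 4, 2 and 6 of 23 genes called at 5, 8 and 28 days, all higher. Its Tgm2, a transglutaminase, rose by 2.63, 1.88 and 1.63, Loxl1 by 1.41 at 5 days, P4ha3 by 1.40 at 28 days and Loxl3 by 1.09 and 0.90 at 5 and 28 days. TGF-beta ligands and receptors, with targets, had 7, 4 and 8 of 19 genes called (6, 4 and 8 higher), and Tgfb1 rose by 1.39, 1.55 and 2.06, Tgfbi by 4.01, 3.02 and 2.14 and Ccn1 by 2.06 at 5 days, where Ltbp4, which binds latent TGF-beta, was lower at -0.83.

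Other basement membrane proteins had 3, 0 and 8 of 20 genes called at 5, 8 and 28 days, and without D845 2 were called at 28 days. Fbln2 rose by 1.48 and Fbln5 and Egflam were lower at -1.20 and -0.94 at 5 days, Smoc2 was lower at -0.78 at 28 days, and Nid1, Fbln5 and Vtn were at 1.24, 1.19 and 1.18 at 28 days and at 0.49, 0.56 and 0.58, not called, without D845. Proteoglycans and tenascins of the neural matrix had 7, 2 and 8 of 25 genes called, 3 of them lower at 5 days and 3 at 28 days. Those lower were Has3, a hyaluronan synthase, at -1.38 and -1.75 at 5 and 28 days, the lectican Bcan at -0.97 and Thbs4 at -1.22 at 5 days, and the link protein Hapln4 at -0.84 and the lectican Acan, aggrecan, at -1.30 at 28 days, after Acan had been called higher at 0.85 at 5 days. Has2, another hyaluronan synthase, rose by 2.89, 2.91 and 2.05, Thbs1 by 2.80 and Tnc, tenascin C, by 2.13 at 5 days, and Spp1, osteopontin, by 2.76 at 28 days. ADAMTS-like proteins had 3, 0 and 2 of 6 genes called, with Adamtsl3 higher at 5 and 28 days (1.29 and 1.25), Thsd4 lower at -1.41 at 28 days, and Adamtsl2 and Adamtsl5 lower at -0.80 and -0.74 at 5 days. Without D845 the 28-day counts were 8 of 26 for matrix receptors, 4 of 12 for protease inhibitors, 3 of 16 for activating proteases, 5 of 23 for collagen processing, 7 of 25 for proteoglycans, 2 of 6 for ADAMTS-like proteins and 7 of 19 for TGF-beta genes.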

How the data were processed

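RNA of 31 left hippocampi was sequenced as paired-end mRNA libraries. The authors trimmed reads with fastp, quantified them with Salmon 1.8.0 against GENCODE M29 (GRCm39), and deposited estimated counts per gene, kept where at least 15 counts were found in at least 15 mice. These counts were used as deposited. Groups follow the labels. With TMM scaling, 2 surrogate variables were estimated with sva 3.50.0 and the 8 groups were fitted with edgeR 4.0.16 (robust quasi-likelihood test, R 4.3.3) on all 15648 genes, with Benjamini-Hochberg adjustment over all of them. Calls needed an FDR no higher than 0.05 with a Log2FC of 0.66 or more in size. Alternatives were DESeq2 1.42.0 with and without ashr 2.2.63, voom in limma 3.58.1, other covariates, a stricter count filter, and fits without each mouse, which re-estimated the surrogate variables. A Ttr covariate and all-member fits without D845, D720 or BEC-B542 were added after the data were seen.

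The members and lists were chosen with earlier results of these data known. Values of every mouse are given for Fn1, for members called at 2 or more days and for the member with the largest change among the called ones of each family at each day, and members called at 1 day are given by Log2FC. Uncalled members are named where most abundant in their family or the partner of a called chain, and of each list up to 4 called genes are named. Mmp9, Mmp15, Mmp24, Adamts1, Adamts5, Adamts8, Col20a1, the lower genes of the lists outside the first 4, and the mouse values of Mmp2, Mmp16, Col5a3, Col15a1 and Col19a1 were chosen after their values were seen. Transcript lengths are from GENCODE M21 and promoter sequences from RefSeq (GRCm38.p6), another build than that of the counts. 1 further gene that the rule for lists would name is counted but not reported here.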

Additional observations from a re-analysis of the deposited data

Results flagged for a closer look

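Each group of 4 mice was examined for 1 mouse far from the other 3, by Dixon's criterion, in the 21 members for which values of single mice are given across a group. Of 147 such groups 8 were marked, 3 of them for mouse D845, and chance alone marks about 1 in 20 groups. The criterion was applied to log2 of CPM plus 0.5. The 21 members were chosen in part for large changes, so these counts cannot be set against that rate. Col1a1 and Col1a2 were not among the 21. D845 stood apart in the rAAV-OVA group at 28 days for Col3a1 (80.9 CPM against 5.25 to 8.14 in the others), Col5a2 (21.7 against 4.37 to 4.72) and Col8a1 (26.4 against 1.89 to 2.34). D724 stood apart among rAAV-control mice at 5 days for Col8a1 (30.4 CPM against 0.879 to 1.15) and Lamc3 (6.98 against 5.19 to 5.31). The others were Col8a1 in rAAV-OVA mouse D684 at 2 days (13.1 CPM against 1.17 to 1.72), Col11a1 in rAAV-OVA mouse D725 at 5 days (9.42 against 6.27 to 6.57) and Col4a6 in rAAV-control mouse D851 at 28 days (2.21 against 1.39 to 1.46).

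The Log2FC at 28 days minus that at 5 days passed the edgeR test for 16 members. It was negative for Col11a1 (-1.69), Adamts1 (-1.24), Adamts8 (-1.05) and Mmp16 (-0.70). It was positive for the collagens Col1a2 (2.80), Col13a1 (2.61), Col6a2 (1.96), Col6a1 (1.81), Col15a1 (1.77), Col11a2 (1.07) and Col9a2 (1.04), the laminins Lamb2 (0.89) and Lama2 (0.69), and Mmp2 (1.96), Mmp15 (1.04) and Mmp28 (1.00). Without D845, 5 of these 16 were still called. The difference was then 0.77 for Col1a2, 1.02 for Col6a2, 0.63 for Col6a1, 1.28 for Col15a1, 1.77 for Col13a1, 0.65 for Col9a2, 0.55 for Lamb2, 0.51 for Lama2, 1.58 for Mmp2, 0.62 for Mmp15 and 0.79 for Mmp28.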

How the results depend on the processing

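No paired analysis was possible because replicate numbers name single mice and mark no shared animal or litter. The number of members called at 8 days was 6, and 2 with at least 15 counts in every mouse and 0 with the mice of that day alone. At 28 days it was 28, and 17 by voom, 10 with that day alone, 8 in batch 1 alone and 0 in batch 2 alone, where each batch holds 2 mice per group. The 28 against 5-day difference fell from 16 members to 5 without covariates, 4 with the batch label in place of the surrogate variables, 10 by voom and 10 with 15 counts in every mouse. Between 28 and 8 days DESeq2 called 7 members and 3 with ashr shrinkage where edgeR called 0, and the ashr count changed with the number of computing threads, for which the cause was not tested. For rAAV-control mice at 2 against 28 days the 4 members became 2 by voom and 1 with 15 counts in every mouse. Over all days, matrix receptors fell from 16 to 10 with ashr shrinkage and protease inhibitors from 7 to 4 with 15 counts in every mouse, and collagen processing rose from 7 to 11 without a limit on Log2FC, without covariates, or with the batch label in place.

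Leaving out each of the 31 mice in turn gave 11 to 23 members at 5 days, 0 to 10 at 8 days, 9 to 33 at 28 days, 1 to 24 for 28 against 5 days, 0 to 6 for 28 against 8 days and 1 to 7 for the rAAV-control mice. It gave 10 to 16 matrix receptors, 3 to 10 other basement membrane proteins and 2 to 4 ADAMTS-like proteins. Col26a1, Col6a3 and Lama1 changed sign at 28 days in batch 1 alone, at -0.36, -0.37 and -0.031 by edgeR and at -0.26, -0.34 and -0.014 as a difference in mean log2 CPM. The cause of these shifts was not tested. Counts of low members, 15 of which had a mean under 2 CPM, limit the precision of their fold changes.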
